A study of Homo sapiens with 6 samples.

Results

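The matrix metalloproteinases (MMPs), the tissue inhibitors of metalloproteinases (TIMPs), the ADAM proteases and the ADAMTS proteases were followed in SUM149 cells. SUM149 is an established line of human inflammatory breast carcinoma cells. It was transfected with control siRNA or with siRNA against TIG1 (tazarotene-induced gene 1, current symbol RARRES1). Members were the genes whose symbol is one of the 4 family names followed by a member number and to which at least 1 probe set of the Affymetrix HG-U133 Plus 2.0 array is annotated alone. They came to 64 of the 19775 genes tested, with 22 MMPs, 4 TIMPs, 20 ADAMs and 18 ADAMTSs. The 64 genes were measured by 145 probe sets, and each gene was represented by its probe set with the highest mean over the 6 arrays. MMP23A, MMP23B, ADAM7, ADAM29 and ADAMTS7 were not analysed here.

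The control group (siControl) comprised 3 arrays of SUM149 cells transiently transfected with a non-targeting siGENOME siRNA pool. The siTIG1 group comprised 3 arrays of the same line transfected with an ON-TARGET Plus pool against TIG1. Both pools were used at 200 nmol/L with oligofectamine, and both groups grew in Ham's F-12 medium with serum, insulin and hydrocortisone. The groups therefore differed in the product line of the siRNA as well as in its target. One cell line and 1 pool per group were used, and the sources used here give no time between transfection and harvest. The labels do not say whether the replicates came from separate cultures. The p-values therefore reflect the spread among these 6 arrays alone, and that spread may be technical.

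MMPs are secreted or membrane-anchored zinc endopeptidases that cut collagens, laminins, growth factors and receptors, and most are made as inactive zymogens. TIMPs bind the active site of MMPs and of some ADAMs and ADAMTSs and block it. ADAMs are membrane proteins, several of which release the outer part of growth factors, cytokines and adhesion molecules from the cell surface, and ADAMTSs are secreted relatives that process proteoglycans, procollagens and von Willebrand factor. In breast carcinoma these proteases are known for their part in invasion and in the release of ligands of the epidermal growth factor receptor, and a large part of the MMP activity in a tumour comes from stromal cells, which a pure cell line does not contain.

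Several features of the arrays bear on every value below. The array of siControl replicate 3 correlated with the other 5 arrays at 0.982 to 0.985 across probe sets, whereas those 5 correlated with each other at 0.992 to 0.999. It also had the highest 3' minus 5' difference of the ACTB and GAPDH control probe sets, a measure that grows as RNA degrades. The ACTB difference averaged 2.85 ± 0.31 (SD, n = 3) on siControl and 2.25 ± 0.10 on siTIG1 arrays on the log2 scale (exact 2-sided permutation p = 0.1, the smallest that 3 against 3 arrays allow). TIG1 itself was lower on average in the siTIG1 group on its 3 probe sets but passed on none (limma adjusted p = 0.20, 0.23 and 0.27 over all probe sets), and on the first and second it passed when siControl replicate 3 was left out (0.024 and 0.043). The array labelled siTIG1 replicate 1 read 10.72, 11.72 and 12.69 on them, beside 11.04, 11.89 and 12.65 on siControl replicate 1, so the directions below are those of the labelled groups. The part of these features in the results was not tested, and values without siControl replicate 3 are given for the genes the results turn on.

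Markers of the cells were checked because fibroblasts and leukocytes are rich sources of these proteases. All 7 measured epithelial markers lay at or above the median gene level of 8.74, and their joint level (log2 of the mean linear signal of the list) was 13.28 to 13.32 on siControl and 13.49 to 13.55 on siTIG1 arrays, with KRT19 and CDH3 called as higher. The joint level of the 8 fibroblast markers was 8.94 to 9.17 on siControl and 9.45 to 9.55 on siTIG1 arrays. Of these 8, only FAP and COL1A1 reached the median gene level, and none was called with all arrays. The joint level follows the highest signals most. Apart from FAP, these markers differed by -0.08 (PDGFRB) to 0.09 (THY1) on the log2 scale. FAP, a surface protease of activated fibroblasts, read 11.13, 11.13 and 10.17 on siControl and 11.71, 11.64 and 11.85 on siTIG1 arrays, a log2 difference of 0.92 (limma adjusted p = 0.10), and it passed when siControl replicate 3 was left out (0.60, limma adjusted p = 1.7e-04). The joint level of 6 leukocyte markers was 7.69 to 8.04 on siControl and 7.87 to 7.91 on siTIG1 arrays, and on siControl replicates 1 and 2 alone it was 7.69 to 7.76, below the siTIG1 arrays. Of these, CD14, a monocyte receptor, read 7.67, 7.62 and 8.95 on siControl and 8.48, 8.48 and 8.37 on siTIG1 arrays, at 0.36 with all arrays (limma adjusted p = 0.61) and 0.80 when siControl replicate 3 was left out (limma adjusted p = 1.6e-05). The other leukocyte markers differed by -0.17 (LYZ) to 0.20 (CSF1R) with all arrays. The joint level of 6 endothelial markers was 8.17 to 8.23 on siControl and 8.22 to 8.25 on siTIG1 arrays. All arrays are of the same cell line, so the fibroblast and leukocyte markers are read here as genes, not as counts of those cells. Their part in the protease results was not tested. In bulk RNA a change in the share of cells within the line and a change in RNA per cell cannot be told apart.

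In the siTIG1 group MMP7, MMP2 and ADAMTS1 were higher than in siControl, ADAM8 was lower, and no TIMP passed the test. On siTIG1 replicate 1, TIG1 read near siControl replicates 1 and 2. That array read 12.69 for MMP7, 10.44 for MMP2, 10.25 for ADAMTS1 and 9.17 for ADAM8, each outside the siControl range. The relation of these genes to the TIG1 level was not tested. The other 60 members did not pass, and 44 of the 64 differed between group means by less than 0.15 on the log2 scale. The 4 calls are 6.25% of the members, while 7.32% of all 19775 genes passed, 3.15% as higher and 4.17% as lower, all at a limma adjusted p under 0.05. The share of members called was therefore close to that of all genes. The median difference of the members was 0.05 on the log2 scale and the median size of the difference 0.10, against 0.02 and 0.10 over all genes. In 16 members the 3 arrays of one group all lay above the 3 of the other, with 13 higher and 3 lower in the siTIG1 group. That is 25% of members, and such separation was seen in 32.0% of all genes, with 16.6% higher and 15.4% lower. At an unadjusted p under 0.05, 10 of the 64 members passed, as did 21.9% of all genes. The count of 4 depended on single arrays: 12 members passed when siControl replicate 3 was left out, 2 when siControl replicate 2 was, and 1 when any one of the other 4 arrays was. The share of all genes moved likewise: 3.03%, 2.78% and 27.2% passed with siControl replicate 1, 2 or 3 left out, and 2.24%, 1.12% and 1.32% with siTIG1 replicate 1, 2 or 3 left out.

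By family, 2 of 22 MMPs rose and none fell, with a median log2 difference of 0.07. None of 4 TIMPs passed, and their median was -0.13. One of 20 ADAMs fell and none rose, with a median of 0.09, and 1 of 18 ADAMTSs rose and none fell, with a median of 0.01. The 20 ADAMs include ADAM5 and ADAM6, which are pseudogenes in human and were both at 0.12. Of the 64 members, 43 lay below the median gene level in both groups. The deposited values carry no detection call, so it is not known whether signals of that size exceed background, and folds formed from them may be understated. Within groups the members' median SD was 0.09 on siControl and 0.06 on siTIG1 arrays, against 0.10 and 0.06 for all genes.

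**Figure D1:**
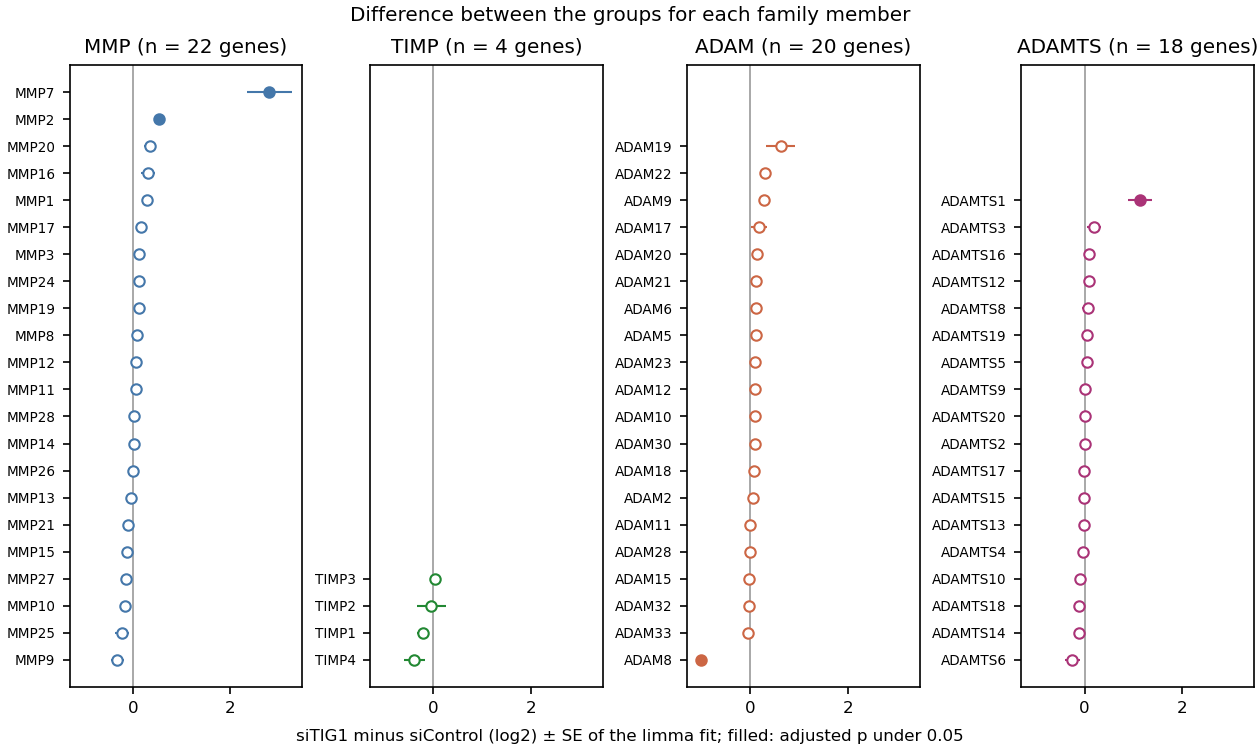
Log2 difference, siTIG1 minus siControl, of each of the 64 members by family (1 point a gene with its standard error, sorted by value; filled where the limma adjusted p over all genes is under 0.05). Most points lie near 0, with MMP7 at 2.80, ADAMTS1 at 1.14, MMP2 at 0.54 and ADAM8 at -1.02 past the threshold.

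MMP7 (matrilysin), a small secreted MMP that lacks the C-terminal hemopexin domain and is made mainly by epithelial cells, had the largest difference of the 64. Its log2 signal was 9.93, 10.28 and 8.50 on siControl replicates 1 to 3 and 12.69, 12.24 and 12.19 on siTIG1 replicates 1 to 3. All 3 siTIG1 arrays lay well above all 3 controls, and siControl replicate 3 was the lowest, at -1.61 from the mean of the other controls. The group means were 9.57 ± 0.95 and 12.37 ± 0.28 (SD, n = 3), a log2 difference of 2.80 ± 0.46 (SE) or 6.97-fold (limma adjusted p = 0.020). Without siControl replicate 3 the difference was 2.26 (limma adjusted p = 1.0e-05). The call was kept without siControl replicate 2 (0.039), and it was lost without siControl replicate 1 (0.057) and without siTIG1 replicates 1, 2 or 3 (0.094, 0.097 and 0.093), with differences of 2.64 to 2.98 in these fits.

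MMP7 stands at one end of a run of 9 MMP genes on chromosome 11, and it was the only one of the 9 that passed. The differences of the other 8 lay between -0.16 and 0.35 on the log2 scale. In chromosomal order from MMP7 they were 0.35 for MMP20, -0.15 for MMP27, 0.09 for MMP8, -0.16 for MMP10, 0.28 for MMP1, 0.13 for MMP3, 0.07 for MMP12 and -0.03 for MMP13. The signals of these 8 genes all lay below the median gene level. MMP7 thus rose beside neighbours of its own family that did not pass the test.

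**Figure D2:**
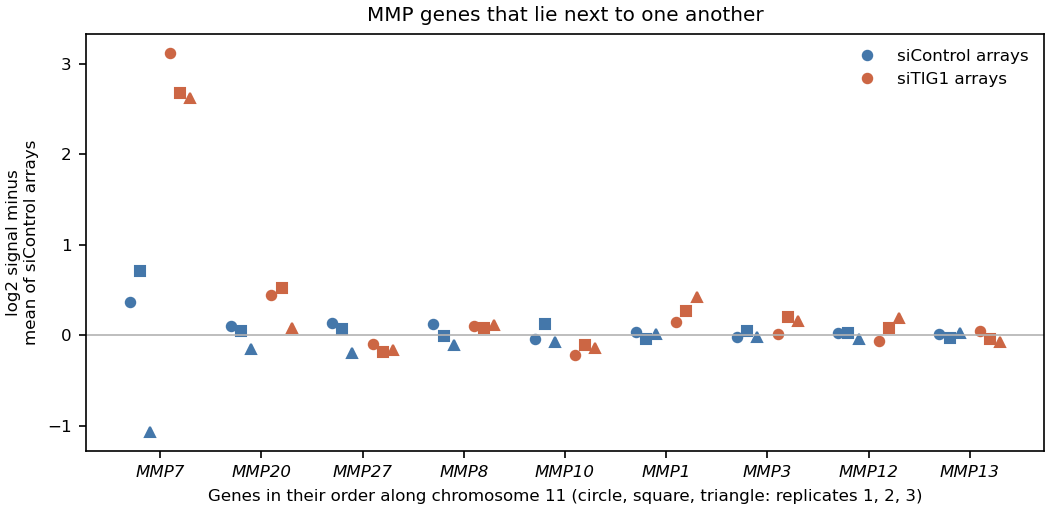
Log2 signal on each array minus the mean of the siControl arrays (each point an array). Shown are the 9 MMP genes that follow each other on chromosome 11, in chromosomal order (no distances drawn). The difference between the group means was 2.80 for MMP7 and between -0.16 and 0.35 for the other 8.

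Several MMP genes are textbook targets of AP-1 (the FOS and JUN factors) through a site close upstream of a TATA box. RefSeq promoters of build GRCh38.p14 were at hand for 36 of the 64 members, 5 of them in the chromosome 11 run (MMP7, MMP20, MMP27, MMP8 and MMP10), and the 250 bases before the start were searched. The letters TGANTCA, on either strand, were found in 4 members (MMP7, MMP10, MMP20 and ADAMTS12), 11.1% of the 36 against 6.6% of 27305 promoters. This pattern is looser than the AP-1 consensus, whose middle base is G or C, so both shares also count letters outside that consensus. The letters TATAAA on the sense strand were found in 6 members (MMP7, MMP8, MMP10, MMP20, MMP21 and MMP26), 16.7% against 7.17%, and the PEA3 letters AGGAAG on either strand in 9 members, 25% against 28.7%. These are matches of letters, not measured sites. The 120 bases before the start are shown for the member with the largest rise and for ADAM8, the member that fell. They are also shown for the 2 neighbours that hold TGANTCA and TATAAA without having passed. Capitals mark TGANTCA and TATAAA matches, and each stretch is on the minus strand of its chromosome, printed 5′ to 3′.
MMP7 (chr11:102530748-102530867): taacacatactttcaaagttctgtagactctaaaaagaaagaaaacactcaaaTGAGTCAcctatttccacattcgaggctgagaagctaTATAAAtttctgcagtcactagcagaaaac
MMP20 (chr11:102625333-102625452): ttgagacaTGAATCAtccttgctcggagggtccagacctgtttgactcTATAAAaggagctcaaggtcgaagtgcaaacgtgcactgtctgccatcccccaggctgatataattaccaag
MMP10 (chr11:102780629-102780748): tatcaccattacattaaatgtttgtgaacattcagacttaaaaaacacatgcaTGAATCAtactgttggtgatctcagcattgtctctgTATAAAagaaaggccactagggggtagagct
ADAM8 (chr10:133276869-133276988): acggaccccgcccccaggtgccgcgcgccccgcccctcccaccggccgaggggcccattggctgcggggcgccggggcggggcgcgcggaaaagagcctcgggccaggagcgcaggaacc
In MMP7 the TGANTCA match began at -67 and TATAAA at -30 from the start, and in MMP10 at -67 and -31. In MMP20 they began at -112 and -72, and ADAM8 had no match to either in these 120 bases. MMP7 and MMP10 thus both match TGANTCA at nearly the same spacing, but the open middle base is G in MMP7 and A in MMP10 and MMP20. Of these genes only MMP7 therefore holds the AP-1 consensus in the stretch shown. The log2 differences of MMP7 and MMP10 were 2.80 and -0.16 (limma adjusted p = 0.26 for MMP10). The MMP10 signals lay below the median gene level, and the part of these letters in the differences was not tested.

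Among the gelatinases, which cut denatured collagen and basement membrane collagen, MMP2 (gelatinase A) rose. Its log2 signal was 9.95, 9.85 and 9.56 on siControl and 10.44, 10.24 and 10.30 on siTIG1 arrays. The groups did not overlap, and siControl replicate 3 was again the lowest. The means were 9.79 ± 0.20 and 10.33 ± 0.10 (SD, n = 3), a log2 difference of 0.54 ± 0.11 (SE) or 1.46-fold (limma adjusted p = 0.040). Without siControl replicate 3 the difference was 0.43 (limma adjusted p = 0.0014), and without any other single array the call was lost (0.058 to 0.16). The other MMP2 probe sets differed by 0.04 and -0.03, so the rise was measured by 1 of 3 probe sets, and the mean of the 3 did not pass (0.18, limma adjusted p = 0.057).

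MMP9 (gelatinase B) read 9.04, 9.06 and 8.65 on siControl and 8.45, 8.71 and 8.63 on siTIG1 arrays. The groups overlapped, because siControl replicate 3 lay among the siTIG1 arrays. The log2 difference was -0.32 ± 0.13 (SE, limma adjusted p = 0.22), and without siControl replicate 3 it was -0.45 (limma adjusted p = 0.0018). The signs of MMP2 and MMP9 were thus opposite, with and without that array.

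None of the 3 collagenases, the MMPs that cut fibrillar collagen, passed. MMP1 (interstitial collagenase) read 5.40, 5.32 and 5.38 on siControl and 5.51, 5.63 and 5.79 on siTIG1 arrays, signals near the bottom of the deposited range, which starts at 4.28. The groups did not overlap, and the log2 difference was 0.28 ± 0.08 (SE, limma adjusted p = 0.11). Without siControl replicate 3 the difference was again 0.28, and the adjusted p was 0.026. MMP8 (neutrophil collagenase) was at 0.09 and MMP13 (collagenase 3) at -0.03.

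The stromelysins and the membrane-type MMPs did not pass either. MMP3 (stromelysin 1), which can activate other MMP zymogens, was at 0.13 (limma adjusted p = 0.33), and MMP10 and MMP11 were at -0.16 and 0.06. MMP14 (MT1-MMP), the membrane protease that activates the MMP2 zymogen, read 9.31, 9.20 and 9.24 on siControl and 9.29, 9.27 and 9.26 on siTIG1 arrays. These ranges overlapped almost fully (difference 0.02 ± 0.05 (SE) on the log2 scale, limma adjusted p = 0.85). The other 5 membrane-type MMPs lay between -0.23 (MMP25) and 0.31 (MMP16), and for MMP25 the array of siControl replicate 3 was the highest of the 6, at 8.68. Left out, it brought MMP25 to -0.07 and MMP16 to 0.18.

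Of the other 7 MMPs, those with the largest sizes were MMP20 and MMP27. MMP20 (enamelysin, a protease of tooth enamel) was at 0.35 ± 0.13 (SE, limma adjusted p = 0.19) from low signals of 5.35 to 6.02, and the groups overlapped. MMP27 was at -0.15 (limma adjusted p = 0.43), and without siControl replicate 3 at -0.25 (limma adjusted p = 0.0068). MMP12, MMP19, MMP21, MMP26 and MMP28 lay between -0.10 and 0.13.

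**Figure D3:**
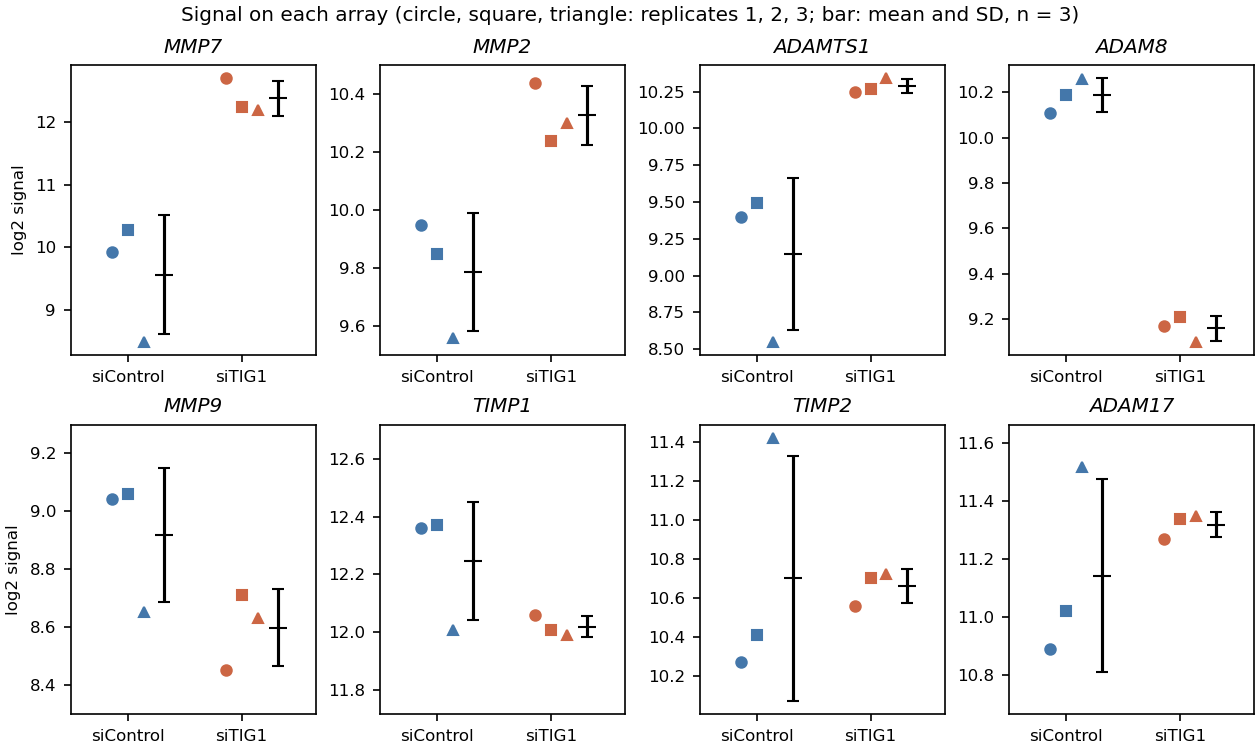
Log2 signal of 8 members on each array, each panel on its own axis (circle, square and triangle, replicates 1, 2 and 3; bars, group mean and SD, n = 3). MMP7, MMP2 and ADAMTS1 lie higher and ADAM8 lower on all 3 siTIG1 arrays than on any siControl array. The array of siControl replicate 3 lies farthest from the other controls for MMP7, TIMP2 and ADAMTS1. It lies apart by less for ADAM17, MMP9, TIMP1 and MMP2.

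The TIMPs, the inhibitors of these proteases, did not pass in either direction. TIMP1, a broad inhibitor of secreted MMPs, read 12.36, 12.37 and 12.01 on siControl and 12.06, 12.01 and 11.99 on siTIG1 arrays. Here siControl replicates 1 and 2 stood above the other 4 arrays, and replicate 3 lay among the siTIG1 arrays. The log2 difference was -0.22 ± 0.11 (SE, limma adjusted p = 0.29), and without siControl replicate 3 it was -0.34 (limma adjusted p = 0.0011).

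TIMP2, which blocks MMPs and also takes part in the activation of MMP2 by MMP14, read 10.27, 10.41 and 11.42 on siControl and 10.56, 10.70 and 10.72 on siTIG1 arrays. All siTIG1 arrays lay above siControl replicates 1 and 2 and below replicate 3, which read 1.08 above the mean of those controls. With all arrays the log2 difference was -0.04 ± 0.30 (SE, limma adjusted p = 0.95). The sign turned when siControl replicate 3 was left out, to 0.32 (limma adjusted p = 0.0072). After quantile normalization the difference was 0.00, so TIMP2 has no settled direction in these data.

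TIMP3, the inhibitor bound to the extracellular matrix, read 9.51, 9.48 and 9.56 on siControl and 9.50, 9.61 and 9.53 on siTIG1 arrays. The groups overlapped, with a log2 difference of 0.03 (limma adjusted p = 0.80). TIMP4 read 8.29, 8.30 and 9.10 on siControl and 8.11, 8.20 and 8.19 on siTIG1 arrays, without overlap. Its difference of -0.39 ± 0.22 (SE, limma adjusted p = 0.37) shrank to -0.12 (limma adjusted p = 0.13) without siControl replicate 3, the highest of the 6 arrays for this gene.

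ADAM8, a catalytically active sheddase known from leukocytes and from invasive breast carcinoma, was the one ADAM that passed. Its log2 signal was 10.11, 10.19 and 10.26 on siControl and 9.17, 9.21 and 9.10 on siTIG1 arrays. The groups lay far apart compared with the spread inside each, and siControl replicate 3 was close to the other controls. The means were 10.18 ± 0.07 and 9.16 ± 0.05 (SD, n = 3), a log2 difference of -1.02 ± 0.06 (SE) or 2.03-fold lower (limma adjusted p = 0.0019). The ADAM8 call held whichever array was left out, with differences of -1.06 to -0.99 and limma adjusted p of at most 0.025. The mean of both ADAM8 probe sets differed by less, at -0.43 (limma adjusted p = 0.0059). The second ADAM8 probe set did not share the fall. It read 7.55, 7.54 and 7.52 on siControl and 7.61, 7.70 and 7.79 on siTIG1 arrays, a difference of 0.16 (limma adjusted p = 0.20 over all probe sets), from signals below the median gene level.

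ADAM10 and ADAM17 are the main sheddases of epithelial cells: ADAM10 cuts Notch receptors and cadherins, and ADAM17 releases TNF and several ligands of the epidermal growth factor receptor. ADAM10 read 11.07, 11.16 and 11.33 on siControl and 11.28, 11.30 and 11.25 on siTIG1 arrays, so the groups overlapped (log2 difference 0.09 ± 0.08 (SE), limma adjusted p = 0.58). Its other 2 probe sets differed by 0.57 and 0.19. The first of these, an x_at probe set, whose probes can bind several transcripts, read 8.23, 8.19 and 8.06 on siControl and 8.65, 8.70 and 8.83 on siTIG1 arrays and passed over all probe sets (0.57 ± 0.07 (SE), limma adjusted p = 0.012). The ADAM10 probe sets thus shared a sign and differed in size and in call, and their mean passed (0.28, limma adjusted p = 0.033).

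ADAM17 read 10.89, 11.02 and 11.52 on siControl and 11.27, 11.34 and 11.35 on siTIG1 arrays. As for TIMP2, siControl replicate 3 was the highest array and replicates 1 and 2 the lowest. The log2 difference was 0.18 ± 0.16 (SE, limma adjusted p = 0.59) with all arrays and 0.37 (limma adjusted p = 0.0015) without siControl replicate 3. Its other probe sets differed by 0.13 and 0.33 and did not pass.

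ADAM9, a sheddase with several membrane substrates, read 11.87, 11.92 and 11.67 on siControl and 12.06, 12.07 and 12.17 on siTIG1 arrays. The groups did not overlap, and the log2 difference of 0.28 ± 0.08 (SE) missed the threshold (limma adjusted p = 0.10). Without siControl replicate 3 it was 0.20 (limma adjusted p = 0.024). ADAM12 and ADAM15, a pair with known disintegrin domains and roles in cell adhesion, were at 0.10 (limma adjusted p = 0.53) and -0.02 (limma adjusted p = 0.85).

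ADAM19 read 9.16, 9.37 and 8.19 on siControl and 9.36, 9.63 and 9.59 on siTIG1 arrays. Most of its log2 difference of 0.62 ± 0.30 (SE, limma adjusted p = 0.30) came with siControl replicate 3, which lay at -1.07 from the mean of replicates 1 and 2. Its value without that array was 0.26 (limma adjusted p = 0.062). Of the 6 ADAMs that lack the zinc-binding motif of an active protease and act through binding, ADAM22, a receptor of LGI proteins in neurons, came nearest to the threshold. It read 9.17, 9.26 and 9.09 on siControl and 9.38, 9.51 and 9.50 on siTIG1 arrays without overlap, at 0.29 ± 0.07 (SE, limma adjusted p = 0.059), and passed without siControl replicate 3 (0.25, limma adjusted p = 0.014). That value is from an x_at probe set, 1 of 8 probe sets of the gene. The other 12 ADAMs lay between -0.06 (ADAM33) and 0.13 (ADAM20).

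ADAMTS1, a secreted protease that cuts the proteoglycans versican and aggrecan and binds heparin, rose. Its log2 signal was 9.40, 9.49 and 8.55 on siControl and 10.25, 10.27 and 10.34 on siTIG1 arrays. All siTIG1 arrays lay above all controls, and siControl replicate 3 was the lowest, at -0.89 from the mean of siControl replicates 1 and 2. The means were 9.14 ± 0.52 and 10.28 ± 0.05 (SD, n = 3), a log2 difference of 1.14 ± 0.24 (SE) or 2.20-fold (limma adjusted p = 0.044). Without siControl replicate 3 the difference was 0.84 (limma adjusted p = 1.1e-05), and without any other single array the call was lost (0.066 to 0.18). The second ADAMTS1 probe set read 7.52, 7.77 and 6.63 on siControl and 8.04, 8.17 and 8.27 on siTIG1 arrays. It had the same sign and the same low siControl replicate 3, at 0.85 ± 0.28 (SE), with a limma adjusted p of 0.15 over all probe sets, and the mean of both did not pass (1.00, limma adjusted p = 0.087).

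ADAMTS5, an aggrecanase that is the neighbour of ADAMTS1 on chromosome 21, was at 0.05 (limma adjusted p = 0.71). Its other probe sets differed by 0.29, 0.28 and -0.07 and did not pass (limma adjusted p = 0.11, 0.16 and 0.64 over all probe sets). The other proteoglycan-cutting members, ADAMTS4, ADAMTS8, ADAMTS9, ADAMTS15 and ADAMTS20, lay between -0.04 and 0.07. One of the 4 ADAMTS9 probe sets, not the one that represents the gene, read 6.82, 6.76 and 7.13 on siControl and 7.29, 7.50 and 7.72 on siTIG1 arrays, at 0.60 ± 0.14 (SE), with a limma adjusted p of 0.062 over all probe sets. None of the 3 procollagen N-proteinases passed, with ADAMTS3 at 0.19 (limma adjusted p = 0.49; 0.10 when siControl replicate 3 was left out), ADAMTS2 at 0.01 and ADAMTS14 at -0.11. Of the remaining 8, ADAMTS6 had the largest size, at -0.25 ± 0.15 (SE, limma adjusted p = 0.41), with siTIG1 replicate 1 the lowest array at 7.67. ADAMTS12 was at 0.09 (limma adjusted p = 0.50), and ADAMTS13, which cuts von Willebrand factor, at -0.02 (limma adjusted p = 0.88).

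When siControl replicate 3 was left out, 8 of the 64 members rose and 4 fell (18.8%), while 27.2% of all genes passed. The 4 members called with all arrays were called there too with the same sign, and 8 others joined them. These were ADAM9, ADAM17, ADAM22, MMP1 and TIMP2 as higher and MMP9, MMP27 and TIMP1 as lower. By family, 3 MMPs rose and 2 fell, 1 TIMP rose and 1 fell, 3 ADAMs rose and 1 fell, and 1 ADAMTS rose. In 7 members the sign differed with and without that array, TIMP2 being the one with a call. Against the mean of the other controls, siControl replicate 3 stood 0.5 or more above in 3 members (TIMP2, TIMP4 and ADAM17) and 0.5 or more below in 3 (MMP7, ADAM19 and ADAMTS1). That is 9.38% of members, against 14% of all genes.

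**Figure D4:**
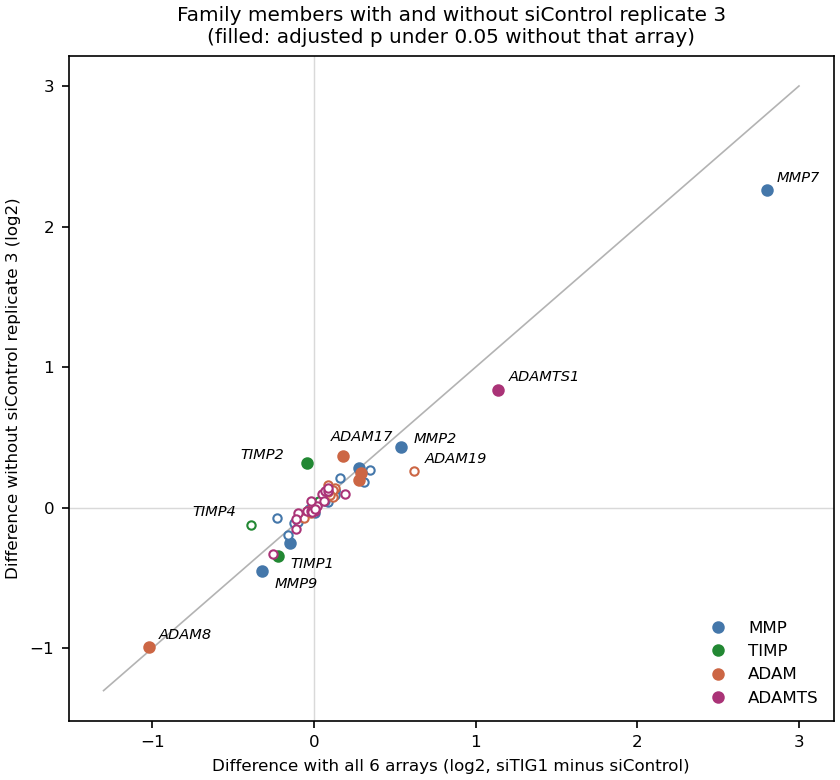
Log2 difference, siTIG1 minus siControl, of the 64 members with all 6 arrays (x axis) and without siControl replicate 3 (y axis), filled where the limma adjusted p without that array is under 0.05; the line marks equal values. MMP7 moves from 2.80 to 2.26 and ADAMTS1 from 1.14 to 0.84, ADAM8 stays near -1.0, and TIMP2 changes sign.

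Several probe sets were available for 43 members, up to 8 for ADAM22. In 28 of these 43, at least 1 probe set had the opposite sign to the one that represents the gene, as with ADAM8 and MMP2. Tested probe set by probe set, 5 of the 145 passed, those representing MMP7, MMP2, ADAMTS1 and ADAM8 and the ADAM10 x_at probe set, while 5.95% of all 41091 probe sets with 1 symbol passed. MMP7 has a single probe set, so its rise has no second probe set to be read against.

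**Figure D5:**
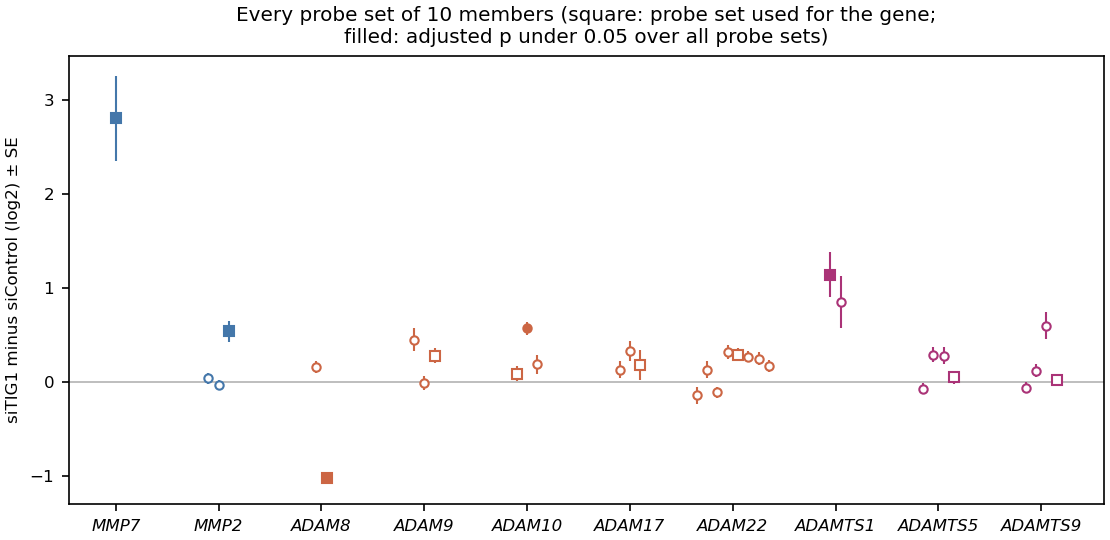
Log2 difference, siTIG1 minus siControl, with its standard error, for each probe set of 10 members (square, the probe set that represents the gene), filled where the limma adjusted p over all probe sets is under 0.05. The ADAMTS1 probe sets share a sign (1.14 and 0.85), while those of ADAM8 (-1.02 and 0.16) and MMP2 (0.54, 0.04 and -0.03) do not.

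Genes known to activate, hold back, traffic or accompany these proteases were also counted. Of 42 measured, 2 rose (PCSK5 and PAPLN), 2 fell (TSPAN17 and PAPPA) and 38 did not pass, 9.52% called against the 7.32% of all genes. With siControl replicate 3 left out, 7 rose and 5 fell, 28.6% against 27.2%. Both shares were thus close to those of all genes.

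Many MMPs, ADAMs and ADAMTSs lose their propeptide to furin-like proprotein convertases. FURIN itself was at 0.00 (limma adjusted p = 0.99), whereas PCSK5, a related convertase, read 6.45, 6.62 and 6.60 on siControl and 7.55, 7.28 and 7.18 on siTIG1 arrays. The groups did not overlap, and the log2 difference was 0.78 ± 0.11 (SE) or 1.71-fold (limma adjusted p = 0.013), from signals below the median gene level. The mean of its 3 probe sets was at 0.47 (limma adjusted p = 0.042). The difference was 0.80 without siControl replicate 3, and the call was lost without siControl replicate 1 (0.051) and without siTIG1 replicate 2 (0.070).

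TSPAN17 belongs to the tetraspanins that carry ADAM10 to the cell surface and steer its choice of substrate. It read 11.04, 10.94 and 11.01 on siControl and 10.24, 10.37 and 10.38 on siTIG1 arrays, with no overlap. The log2 difference was -0.67 ± 0.06 (SE) or 1.59-fold lower (limma adjusted p = 0.0043), and it passed whichever array was left out (at most 0.035). The mean of its 2 probe sets differed by less, at -0.31 (limma adjusted p = 0.019), because the other probe set did not share the fall. Among the other ADAM10 tetraspanins TSPAN15 came nearest to the threshold, at 0.31 (limma adjusted p = 0.052). TSPAN15 has 1 probe set, so averaging probe sets left its values unchanged. In that fit only the other genes differed, and its limma adjusted p was 0.048. When siControl replicate 3 was left out, TSPAN15 (0.37, limma adjusted p = 0.001) and TSPAN10 (0.18, 0.036) passed as higher and TSPAN5 (-0.44, 5.2e-04) as lower. RHBDF1 (iRhom1), which escorts ADAM17 through the secretory pathway, was at -0.45 ± 0.32 (SE, limma adjusted p = 0.48), with siControl replicate 3 the highest array at 12.63, and at -0.06 when that array was left out.

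PAPLN (papilin), a matrix protein related to the non-catalytic part of ADAMTSs, read 8.30, 8.45 and 7.53 on siControl and 9.14, 9.23 and 9.28 on siTIG1 arrays. Its pattern had the same low siControl replicate 3 as ADAMTS1. The log2 difference was 1.12 ± 0.23 (SE) or 2.18-fold (limma adjusted p = 0.041). It was 0.84 without siControl replicate 3 (limma adjusted p = 2.7e-05), and the call was lost without any other array (0.058 to 0.17). The mean of its 2 probe sets was smaller, at 0.57 (limma adjusted p = 0.025), because the other probe set did not share the rise. PAPPA (pappalysin), a secreted metalloproteinase that cuts IGF-binding proteins, read 10.29, 10.31 and 10.22 on siControl and 9.62, 9.56 and 9.53 on siTIG1 arrays. The groups lay apart, at -0.70 ± 0.05 (SE) or 1.63-fold lower (limma adjusted p = 0.0026), and PAPPA passed whichever array was left out (at most 0.033). That value is from an x_at probe set, 1 of 11 for the gene. The mean of the 11 was at -0.24 (limma adjusted p = 0.031), and with x_at probe sets avoided the difference was -0.60 (limma adjusted p = 0.014).

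Among the other genes, PLAU (urokinase), which starts plasmin formation and so the activation of some MMPs, was at 0.43 (limma adjusted p = 0.22). It passed at a smaller 0.23 when siControl replicate 3 was left out (limma adjusted p = 0.040). Without that array PLAUR also passed as higher (0.23, limma adjusted p = 0.035). PLAT, another plasminogen activator, and THBS1 passed there as lower (-0.32 and -0.29, limma adjusted p = 0.04 and 0.0099). RECK, a membrane-anchored MMP inhibitor, was at 0.11 (limma adjusted p = 0.61; 0.01 when that array was left out), and BSG (basigin, an inducer of MMPs) at 0.02 (limma adjusted p = 0.92).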

How the data were processed

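Per the labels, biotin-labelled cRNA from total RNA of SUM149 cells was hybridised to HG-U133 Plus arrays, 3 for each group, and groups and replicate numbers were read from the sample titles. The deposited log2 values, 1 per probe set and array, were used as given. The submitters' processing notes list MAS5 and RMA without a role, so the method behind the deposited log2 values is unknown here. The log base was taken as 2 from the range of 4.28 to 15.59. Array medians of 7.87 to 7.90 show values already scaled between arrays, so a common shift of most genes would be hidden.

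Of 54675 probe sets, 62 are controls, 41091 carry 1 symbol, 1801 several and 11721 none. Members were matched on the symbols of the platform annotation. For naming and grouping genes, these symbols were replaced by the RefSeq symbol of the same gene identifier where there was one. Each of the 19775 genes was represented by its probe set with the highest mean. The 2-sided test was limma 3.58.1 (R 4.3.3; lmFit, eBayes, no block), adjusted by Benjamini-Hochberg over all genes, with a threshold of 0.05. The fit was tested on simulated data. Differences are siTIG1 minus siControl on the log2 scale. The number of arrays limits the precision.

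Members and gene lists were chosen with earlier results of these data known. Named are all members past the threshold, the 3 of each family with the largest differences and the 3 with the highest mean signals, all TIMPs, further members chosen for their known roles, members whose call changed without siControl replicate 3, and every regulator past the threshold. FAP and other genes named beside these complete a count or list.

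The labels name no pairing of the arrays, and the deviations of same-numbered arrays from their group means correlated at -0.0811, 0.0234 and -0.0389. With siControl replicate 3 apart, the control deviations mostly reflect that array, so these values cannot exclude a pairing. Alternatives were quantile normalization, median centring, avoiding x_at probe sets, every probe set on its own, averaging the probe sets of a gene, leaving out dim genes, a trended robust fit, the replicate number as a block, and each array left out in turn. With every probe set on its own, a gene was read from its probe set with the lowest p, which favours calls.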

Additional observations from a re-analysis of the deposited data

How the results depend on the processing

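With quantile normalization, median centring, dim genes left out, the mean of probe sets, x_at probe sets avoided, every probe set on its own or a trended robust fit, 1201 to 1907 genes, 3 to 5 members and 4 to 5 regulators passed. With the replicate number as a block these counts were 238, 1 and 2, and ADAM8, TSPAN17 and PAPPA remained called. The block ended the calls of MMP7 (limma adjusted p = 0.057), MMP2 (0.077), ADAMTS1 (0.10), PCSK5 (0.072) and PAPLN (0.10). Whether the numbers pair the arrays is not known, and the cause of these lost calls was not tested. With 1 array left out in turn, 222 to 5375 genes, 1 to 12 members and 2 to 12 regulators passed, and the highest counts came without siControl replicate 3. The TIG1 probe sets then differed by -1.58 to -0.75, -1.52 to -0.68 and -1.09 to -0.46, and the first and second passed without siControl replicate 3 (limma adjusted p = 0.024 and 0.043).

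Signs turned only for members that had not passed. TIMP2 was at 0.00 after quantile normalization, 0.01 with the mean of its probe sets and -0.26 to 0.32 with 1 array left out. With every probe set on its own, the TIMP2 probe set with the lowest p was at 0.14. ADAM15 was at 0.03 after quantile normalization and -0.04 to 0.01 with 1 array left out. MMP14 ranged from 0.00 to 0.05, TIMP3 from 0.00 to 0.06 and ADAMTS13 from -0.06 to 0.02 with 1 array left out. ADAM22 passed after quantile normalization (0.31, limma adjusted p = 0.043). It was lower and did not pass with x_at probe sets avoided (0.17, limma adjusted p = 0.16) or with the mean of its probe sets (0.15, limma adjusted p = 0.15). The cause of these changes was not tested. The median difference of all genes stayed between -0.02 and 0.03 under each alternative. Signals without a detection call limit what the 43 dim members can show.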

Other observations

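Several genes named after these families fell outside the 64 members, and of these ADAMDEC1 is also among the 42 regulators counted above. The pseudogene transcripts ADAM3A and ADAM3B were at -0.07 and 0.03 on the log2 scale (siTIG1 minus siControl), and ADAMDEC1, a secreted ADAM-like protein of macrophages and dendritic cells, was at 0.07. The antisense, opposite-strand or divergent transcripts ADAM7-AS2, ADAMTS9-AS1, ADAMTS9-AS2, ADAMTS16-DT, ADAMTSL4-AS2, MMP24OS and MMP25-AS1 lay between -0.05 and 0.11. The 10 genes had limma adjusted p of 0.40 or more.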
